A study of Mus musculus with 2 samples.

Results

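The BCL2 family was followed through 10 of its genes, 3 anti-apoptotic members (*Bcl2*, *Bcl2l1* and *Mcl1*), 2 effectors (*Bax* and *Bak1*) and 5 BH3-only members (*Bcl2l11*, *Bid*, *Bad*, *Bbc3* and *Pmaip1*). They were taken by symbol, for their known part in the lifespan of CD4 and CD8 double-positive (DP) thymocytes, from the 21041 genes of the deposited RNA-seq table, and all 10 were found in it. The table holds 1 DP library of WT mice and 1 of *Cxxc1*-deficient mice, called the deficient library or deficient cells from here on. CXXC1 is a CpG-binding subunit of the SETD1 complex that trimethylates histone H3 at lysine 4, and the study asked which genes of DP cells change without it. Per the study's methods, WT mice carried *Cxxc1* fl/fl without Cre and the deficient mice carried *Cxxc1* fl/fl with h*CD2*-Cre, a transgene that removes the floxed exons from early thymocytes and from other immune cells. The genotype label of the deficient sample reads Cxxc1+/- whereas its title reads KO, and the sample was grouped by the title. The labels give no age, no sex and no number of mice behind a library.

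BCL2 family proteins decide whether the outer membrane of mitochondria is opened in a dying cell. The effectors BAX and BAK form the pores that release cytochrome c, the anti-apoptotic proteins BCL-2, BCL-XL (encoded by *Bcl2l1*) and MCL-1 hold effectors and BH3-only proteins in check, and BH3-only proteins such as BIM (encoded by *Bcl2l11*), BID, BAD, PUMA (encoded by *Bbc3*) and NOXA (encoded by *Pmaip1*) sense stress and tip the balance towards death. In the thymus, BCL-XL and MCL-1 are known to keep DP cells alive, BCL-2 is known to be low at the DP stage and higher before and after it, and BIM is known for the removal of self-reactive thymocytes.

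Each gene has 1 whole-number expression value per library, rounded by the authors. Over 1953 short genes of a single annotated transcript in WT and 1913 in the deficient library, 75% and 73.5% of the values, multiplied by the transcript length, were whole multiples of 1 constant within the rounding of the value, against 21.7% and 18.6% that rounding alone would give. The values are therefore per length of transcript, and 1 read on 1 kb of transcript was worth 4.06 in WT and 4.70 in the deficient library. With the longest annotated transcript of each gene, approximately 1404165 reads lay on genes in WT and 724687 in the deficient library. All intervals below are approximate 95% intervals (exact Clopper-Pearson for a ratio of 2 libraries) that rest on these reads and cover counting error only. With 1 library per genotype there was no replicate check and no test, and each difference is one between 2 libraries. In bulk samples, fewer cells of a type and less RNA per cell cannot be told apart. The targeted gene *Cxxc1* had a value of 91 in WT and 50 in the deficient library, a ratio of 0.549 with an interval from 0.338 to 0.877. It was higher in the deficient library when both were scaled to the same median of the genes averaging 100 or more. By quantitative PCR, the study found *Cxxc1* mRNA almost absent from deficient DP cells, and by western blot it reported loss of the protein. Cre removes only the floxed exons, whereas the value here is for the whole gene. Of 15 Y-linked genes in the table, the WT library had 0 above 0 and the deficient library 7, so a difference in the sex of the mice and the genotype cannot be told apart. Olfactory receptor genes, which thymocytes are not known to use, had medians over 1122 genes of 22 in WT and 24 in the deficient library, and these served as the background level.

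Of the 10 genes, 7 were lower in the deficient library and 3 were higher, beside 60% lower over the 20125 genes above 0 in at least 1 library. The direction of *Bcl2*, *Bak1* and *Bbc3* among the 7 turned under other scalings of the libraries. *Bcl2l1*, *Mcl1*, *Bcl2l11* and *Bax* stayed lower under each scaling run. *Bid*, *Bad* and *Pmaip1* could not turn, since each of the 5 scalings raised the deficient values. *Bax* was lower by the most, and *Mcl1*, *Bcl2l1* and *Bcl2l11* were each lower by over 2-fold. These 4 genes compare with 17.4% of all genes at least 2-fold lower. *Bad* alone was at least 2-fold higher as deposited, against 5.89% of all genes. Under 4 of the 5 other scalings *Bid*, *Bad* and *Pmaip1* all were, against 12% to 37.2% of all genes. The median log2 ratio of the 10 genes, *Cxxc1*-deficient to WT, was -0.46 beside -0.20 over all genes. This median turned to positive values under 3 of 5 other scalings. Its distance of -0.26 from the median of all genes could not change there, since a scaling moves every log2 ratio alike. The distance was -0.559 after the olfactory receptor median was subtracted from both libraries. Of all genes, 13996 had a mean under 50, with a median log2 ratio of 0, against 3 of the 10 members. The distance was therefore not set apart from level.

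**Figure D1:**
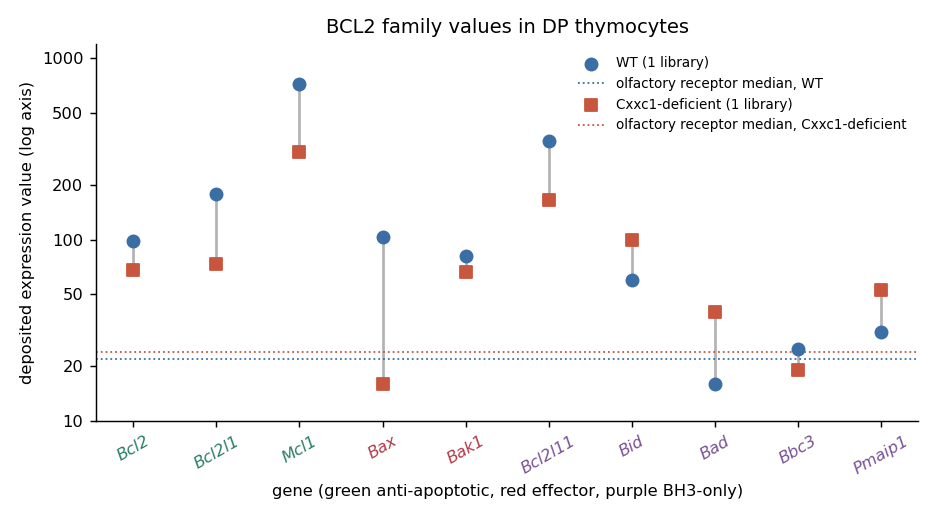
Deposited expression value (log axis) of each gene in the WT library (circles) and the deficient library (squares), with the olfactory receptor median of each library as dotted lines. The largest gap belongs to *Bax*, from 103 to 16, and the squares of *Bid*, *Bad* and *Pmaip1* lie above the circles; under other scalings *Bcl2*, *Bak1* and *Bbc3* change direction.

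Because CXXC1 binds unmethylated CpG, the promoters of the 2 genes with the largest reductions and of 2 genes with a higher value are shown. Each window runs from 250 bases before to 50 bases after the most upstream start that RefSeq (GRCm38.p6) gives for the gene, is read in the direction of transcription and has each CpG in capitals. The windows are chr2:152831679-152831978 on the minus strand for *Bcl2l1*, chr7:45466849-45467148 on the minus strand for *Bax*, chr6:120916775-120917074 on the minus strand for *Bid* and chr19:6941611-6941910 on the plus strand for *Bad*.
Bcl2l1: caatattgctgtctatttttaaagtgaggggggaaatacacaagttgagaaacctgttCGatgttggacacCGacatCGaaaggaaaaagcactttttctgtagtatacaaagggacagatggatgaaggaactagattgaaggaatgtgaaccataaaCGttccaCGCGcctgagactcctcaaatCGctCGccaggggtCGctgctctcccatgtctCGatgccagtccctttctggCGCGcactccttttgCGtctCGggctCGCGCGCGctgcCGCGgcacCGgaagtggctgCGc
Bax: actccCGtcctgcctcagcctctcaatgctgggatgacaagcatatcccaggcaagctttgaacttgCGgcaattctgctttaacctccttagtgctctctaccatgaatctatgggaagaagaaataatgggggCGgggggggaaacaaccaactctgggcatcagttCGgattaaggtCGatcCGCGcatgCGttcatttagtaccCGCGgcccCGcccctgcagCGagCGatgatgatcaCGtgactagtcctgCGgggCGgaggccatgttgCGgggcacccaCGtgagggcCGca
Bid: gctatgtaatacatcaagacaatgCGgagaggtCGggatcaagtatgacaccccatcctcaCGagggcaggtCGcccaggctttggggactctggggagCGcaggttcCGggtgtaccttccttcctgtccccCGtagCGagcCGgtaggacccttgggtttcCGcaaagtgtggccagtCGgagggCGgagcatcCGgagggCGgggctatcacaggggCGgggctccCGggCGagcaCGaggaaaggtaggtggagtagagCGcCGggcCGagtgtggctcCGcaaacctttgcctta
Bad: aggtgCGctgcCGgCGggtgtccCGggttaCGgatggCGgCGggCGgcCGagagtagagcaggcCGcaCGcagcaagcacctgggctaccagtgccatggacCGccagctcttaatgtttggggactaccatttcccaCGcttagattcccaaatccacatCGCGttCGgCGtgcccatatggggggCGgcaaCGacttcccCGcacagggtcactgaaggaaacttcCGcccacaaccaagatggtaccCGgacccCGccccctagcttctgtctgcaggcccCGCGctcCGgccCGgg

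The lower and the higher genes shown had like numbers of CpG in these windows, with 22 for *Bcl2l1* and 19 for *Bax* against 22 for *Bid* and 27 for *Bad*. *Mcl1* and *Bcl2l11*, also lower by over 2-fold, had 33 and 27. Windows at further starts of *Bcl2l1* held 14 and 1. The study itself found only a small part of its CXXC1-binding sites in DP cells at CpG islands. A window was found for 9 of the 10 genes (not for *Pmaip1*). Of the 9 most upstream windows, 8 held more CpG than the median of 14 over 15686 windows, 1 for each gene of the table with an entry, and *Bak1* was the exception with 11. Against the median of 24 over the 1917 genes with a mean of 100 or more, 5 of the 9 held more. The counts reached 44 in *Bcl2* and 34 in *Bbc3*, which are among the most CpG-rich, with fewer CpG in 97.1% and 89.8% of all windows. The family thus spans CpG counts from 11 to 44, and its ratios do not follow them in order. *Bcl2*, with the highest count, had a ratio close to the median of genes of its level. Motifs were searched on both strands. The E-box CANNTG, which E proteins bind, was in 5 of the 9 windows and in 68.2% of all windows. The core TGTGGT of RUNX sites was in 1 of 9, that of *Bak1*, and in 14.2% of all windows. A p53 half-site was in 1 of 9, that of *Bax*, and in 7.2% of all windows. A match of this kind is a description of the letters and not a site.

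Among the anti-apoptotic members, *Mcl1* (chromosome 3 from 95462643 to 95467099, plus strand, mm9) had a value of 722 in WT and 306 in deficient cells. It was the highest of the 10 genes in both libraries, above 99.2% of all genes in WT and 99.4% in the deficient library. Its fold reduction was 2.36 with an interval from 2.02 to 2.75, on approximately 620 and 227 reads. *Bcl2l1* (chromosome 2 from 152593052 to 152657464, minus strand), the survival gene of the DP stage, had 178 in WT and 73 in deficient cells. The fold reduction of 2.44 was close to that of *Mcl1*, with an interval from 1.65 to 3.58. The value of *Mcl1* per *Bcl2l1* was 4.06 in WT and 4.19 in deficient cells, and the ratio between them of 1.03 had an interval from 0.676 to 1.57. *Bcl2* (chromosome 1 from 108434755 to 108610851, minus strand) had 98 in WT and 68 in deficient cells. Its fold reduction of 1.44 (interval 1.13 to 1.86) was the smallest of the anti-apoptotic members and turned to a log2 ratio of 0.13 with both libraries scaled to the same sum. *Bcl2l1* per *Bcl2*, a ratio within each library that no scaling changes, was 1.82 in WT and 1.07 in deficient cells, a change by 0.591 with an interval from 0.374 to 0.953. In other words, the survival gene typical of DP cells stood above *Bcl2* in WT and about level with it in the deficient library. Genes with a mean of 100 or more, as *Bcl2l1* has, had a median log2 ratio of -1.08. Those from 50 to under 100, as *Bcl2* has, had -0.53, so this shift was not set apart from that of level.

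The effectors differed from each other. *Bax* (chromosome 7 from 52717065 to 52722268, minus strand) had a value of 103 in WT and 16 in deficient cells. The latter value is below the olfactory receptor median of 24, and higher than 36.5% of the olfactory receptor genes. The fold reduction of *Bax* was 6.44 with a wide interval from 2.03 to 22.9, since the values rest on approximately 27 and 4 reads. *Bak1* (chromosome 17 from 27156755 to 27165954, minus strand) had 81 in WT and 66 in deficient cells, a ratio of 0.815 with an interval from 0.513 to 1.30 that includes 1, and it turned higher in 4 of the 5 other scalings. *Bax* per *Bak1* was 1.27 in WT and 0.242 in deficient cells, a change by 0.191 with an interval from 0.0493 to 0.688. The pair of pore-forming genes thus had like values in WT, whereas *Bak1* made up 80.5% of their sum in the deficient library.

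Of the 5 BH3-only members, *Bcl2l11* (chromosome 2 from 127951774 to 127988283, plus strand) was by far the highest, with 352 in WT and 166 in deficient cells. Its fold reduction was 2.12 with an interval from 1.77 to 2.53, on approximately 437 and 178 reads. The gene that encodes BIM was therefore lower by about as much as *Mcl1*, whose protein holds BIM, and *Mcl1* per *Bcl2l11* was 2.05 in WT and 1.84 in deficient cells, with an interval of the change from 0.709 to 1.14. *Bid* (chromosome 6 from 120841948 to 120866871, minus strand), whose protein is activated by caspase cleavage, went the other way with 60 in WT and 100 in deficient cells. Its ratio of 1.67 had an interval from 1.05 to 2.59. That interval would run from 0.569 to 5.13 and include 1 if the reads came from the shortest annotated transcript. *Bid* per *Bcl2l11* was 0.170 in WT and 0.602 in deficient cells, a change by 3.53 with an interval from 2.14 to 5.68. *Pmaip1* (chromosome 18 from 66618258 to 66625204, plus strand), which encodes NOXA, a partner of MCL-1, had 31 in WT and 53 in deficient cells. The ratio of 1.71 had an interval from 0.956 to 3.23, so a difference was not detectable at this depth when taken alone. Both values lay below the 95th percentile of the olfactory receptor genes, above 68.0% of them in WT and 90.9% in deficient cells, and ratios built on *Pmaip1* share that limit. *Mcl1* per *Pmaip1* was 23.3 in WT and 5.77 in deficient cells, a change by 0.248 with an interval from 0.129 to 0.455. Read the other way, *Pmaip1* per *Mcl1* was higher by 4.03-fold, with an interval from 2.20 to 7.76. That interval includes the median of 2.36 of genes with a mean under 50 and the 2.57 of the olfactory receptor median. This change was therefore not set apart from that of level. *Bad* (chromosome 19 from 7016351 to 7026388, plus strand), whose protein binds BCL-XL and BCL-2, had 16 in WT and 40 in deficient cells. It stood below the olfactory receptor median in WT, and its ratio of 2.5, on approximately 6 and 12 reads, had an interval from 0.806 to 7.53. *Bbc3* (chromosome 7 from 16894965 to 16903554, plus strand), which encodes the p53-inducible PUMA, had 25 in WT and 19 in deficient cells, close to the olfactory receptor medians of both libraries. Its ratio of 0.760 had an interval from 0.243 to 2.08 and turned higher in 3 of the 5 other scalings.

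**Figure D2:**
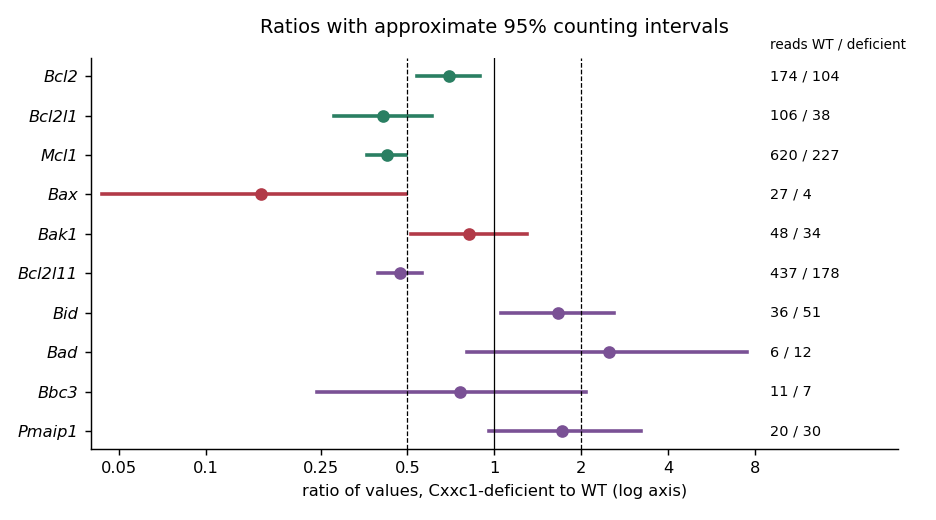
Ratio of the deposited values, *Cxxc1*-deficient to WT (log axis, dots), with approximate 95% counting intervals (bars) and the approximate reads of both libraries; dashed lines mark 2-fold. The intervals of *Bcl2*, *Bcl2l1*, *Mcl1*, *Bax* and *Bcl2l11* lie below 1 and that of *Bid* above 1 for the values as deposited, while *Bcl2* turns under other scalings.

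The order of the genes by level, which compares values per length of transcript, changed between the libraries. In WT it ran *Mcl1*, *Bcl2l11*, *Bcl2l1*, *Bax*, *Bcl2*, *Bak1*, *Bid*, *Pmaip1*, *Bbc3* and *Bad*. The first 3 steps were past counting error, with *Mcl1* at 2.05 times *Bcl2l11* (1.81 to 2.32), *Bcl2l11* at 1.98 times *Bcl2l1* (1.60 to 2.47) and *Bcl2l1* at 1.73 times *Bax* (1.11 to 2.71). The steps from *Bax* to *Bid* were not, the step from *Bid* to *Pmaip1* was (1.94, with an interval from 1.11 to 3.60), and those from *Pmaip1* to *Bad* were not. In deficient cells the order ran *Mcl1*, *Bcl2l11*, *Bid*, *Bcl2l1*, *Bcl2*, *Bak1*, *Pmaip1*, *Bad*, *Bbc3* and *Bax*. Only the first 2 steps were past counting error there, 1.84 from *Mcl1* to *Bcl2l11* (1.51 to 2.26) and 1.66 from *Bcl2l11* to *Bid* (1.22 to 2.33). *Bid* thus moved from the seventh place to the third and *Bax* from the fourth to the last, whereas *Mcl1* and *Bcl2l11* kept the first 2 places. Against all genes of the library, *Bid* was above 73.0% in WT and 93.3% in deficient cells, and *Bax* above 84.8% and 14.4%.

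Changes relative to *Mcl1* do not depend on the scaling of the libraries. The values of *Bcl2l1* and *Bcl2l11* per *Mcl1* changed by 0.968 (0.637 to 1.48) and by 1.11 (0.876 to 1.41), so the 3 highest of the 10 genes in WT were lower by amounts that counting error does not separate. Relative to *Mcl1*, *Bcl2* was higher by 1.64-fold (1.21 to 2.19), *Bak1* by 1.92-fold (1.18 to 3.15), *Bid* by 3.93-fold (2.40 to 6.27), *Pmaip1* by 4.03-fold (2.20 to 7.76) and *Bad* by 5.90-fold (1.87 to 17.9). The intervals of *Bbc3* (0.564 to 4.98) and *Bax* (0.102 to 1.18) included 1. Most genes were higher relative to *Mcl1* by this measure, with a median of 2.05 over all genes, 1.63 over genes with a mean from 50 to under 100 (quartiles 1.27 and 2.12) and 2.36 over genes with a mean under 50 (quartiles 1.77 and 3.13), and the olfactory receptor median was higher by 2.57. The values of *Bcl2*, *Bak1* and *Bbc3* therefore lay within the ordinary range of their level, and those of *Bid*, *Pmaip1* and *Bad* above the upper quartile. The intervals are those of 9 comparisons and were not widened for their number.

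The ratio of a gene between these libraries was related to its level. Over the 2472 genes with a mean of 100 or more, the median log2 ratio was -1.08, and 56.8% were at least 2-fold lower. *Mcl1*, *Bcl2l1* and *Bcl2l11* belong to this range, all 3 were at least 2-fold lower, and their log2 ratios of -1.24, -1.29 and -1.08 lay between the quartiles of -1.46 and -0.73 of these genes. A reduction of 2-fold was therefore the common result at their level and is not particular to them. Over the 3657 genes with a mean from 50 to under 100, the median was -0.53 with quartiles of -0.90 and -0.16, and 20% were at least 2-fold lower. Of the 4 family members in this range, *Bcl2* at -0.53 was at the median and *Bak1* at -0.30 was between the quartiles. *Bax* at -2.69 was below the lower quartile, and *Bid* at 0.74 was above the upper quartile. Over the 13996 genes with a mean under 50, the median was 0 with quartiles of -0.42 and 0.41, with 9.75% lower and 8.22% higher by 2-fold or more. Of the 3 members in this range, *Bbc3* at -0.40 was between the quartiles, and *Pmaip1* at 0.77 and *Bad* at 1.32 were above the upper one.

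**Figure D3:**
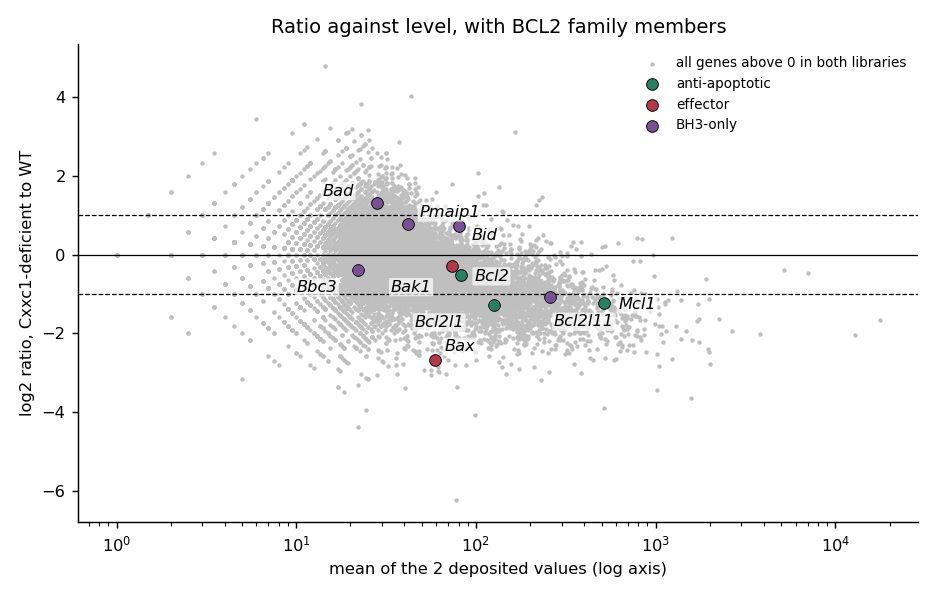
Log2 ratio of *Cxxc1*-deficient to WT against the mean of both values (log axis) for all genes above 0 in both libraries (grey) and the family (coloured by role); dashed lines mark 2-fold. *Mcl1*, *Bcl2l1* and *Bcl2l11* lie within the cloud of genes of their level, *Bax*, with a mean of 59.5, lies below most genes of its level, and *Bid*, with a mean of 80, above most; under other scalings all points move up together and *Bcl2*, *Bak1* and *Bbc3* cross 0.

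The members were then summed by role. The 3 anti-apoptotic members summed to 998 in WT and 447 in deficient cells, a ratio of 0.448. The 2 effectors summed to 184 and 82, a ratio of 0.446. The 5 BH3-only members summed to 484 and 378, a ratio of 0.781. *Mcl1* supplied 72.3% of the anti-apoptotic sum in WT and 68.5% in deficient cells, and *Bcl2l11* supplied 72.7% and 43.9% of the BH3-only sum. Without *Bcl2l11*, the BH3-only members summed to 132 in WT and 212 in deficient cells. The anti-apoptotic sum per BH3-only sum, which is independent of the scaling, was 2.06 in WT and 1.18 in deficient cells, a change by 0.573 with an interval from 0.468 to 0.703 from Poisson errors of the reads. The sum leaves out the BH3-only gene *Bmf*, with 246 and 73, and would change less with it. *Mcl1* and *Bcl2l1* belong to the genes with a mean of 100 or more, with a median log2 ratio of -1.08. The BH3-only members beside *Bcl2l11* belong to lower levels, with medians of -0.53 and 0. The part of level in the change was not tested. With the highest gene of each role left out, also without *Bmf*, the change was 0.318. That step removes *Bcl2l11* and leaves the BH3-only sum of 132 in WT and 212 in deficient cells. It is therefore no independent check of the direction. The anti-apoptotic sum per effector sum was 5.42 in WT and 5.45 in deficient cells, a change by 1.01 with an interval from 0.653 to 1.55. It became 3.29 when the highest gene of each role was left out, which sets *Bcl2l1* and *Bcl2* against *Bax* alone. Sums of mRNA values say nothing of the amounts of the proteins.

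**Figure D4:**
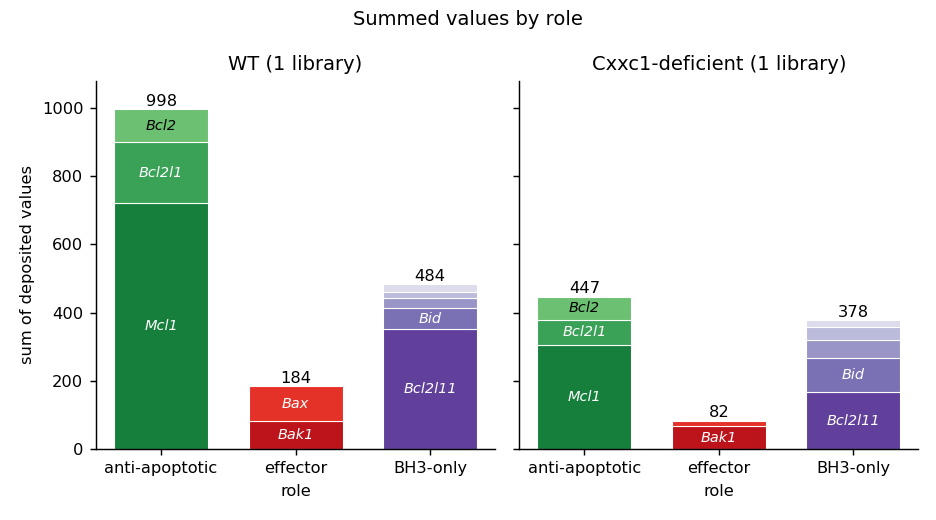
Sums of the deposited values of the anti-apoptotic, effector and BH3-only members in the WT and the *Cxxc1*-deficient library, stacked by gene; segments of at least 60 are labelled. The anti-apoptotic sum is 998 in WT and 447 in the deficient library, and the BH3-only sum is 484 and 378, with *Bid* and the smaller segments taking a larger part of it.

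Other members of the family were followed in a list of 16 genes. Of these, *Bcl2a1a*, *Bcl2a1b* and *Bcl2a1d* were listed at 0 in both libraries. They belong to a group of near-identical copies, and whether their reads map uniquely was not searched. Of the other 13, 6 were lower and 7 were higher, where 60% of all genes were lower. A fall of 2-fold or more was seen in 3, against 17.4% of all genes. A rise of that size was seen in 2, against 5.89%. The median log2 ratio of the 13 was 0.16 beside -0.20 over all genes, and 3 or 4 were lower in 4 of the 5 other scalings. Of the 5 with a mean of 50 or more, 4 were lower, near the 87.7% of genes at that level. The other 8 had a mean under 50, where 48.5% of all genes were higher. The part of level in these counts was not tested. *Bmf*, a further BH3-only gene, had 246 in WT and 73 in deficient cells, 3.37-fold lower (2.60 to 4.44). *Bnip3l*, which encodes a receptor of mitophagy, had 232 and 103, a fold reduction of 2.25 (1.71 to 3.01). *Bmf* was thus second to *Bcl2l11* among BH3-only genes in WT, above *Bid*, and lower than *Bid* in the deficient library. *Bcl2l2*, which encodes the anti-apoptotic BCL-W, had 66 and 41, a ratio of 0.621 (0.402 to 0.956). *Bcl2l13*, a mitochondrial family member, had 80 and 68, a ratio of 0.850 (0.647 to 1.10). *Bcl2l15* had 37 and 68, a ratio of 1.84 (1.01 to 3.72). The remaining 8 genes above 0 had values from 7 to 44 in both libraries.

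The partners that act beside and below the family at the mitochondrion were in large part lower as deposited, as genes of their level were, and 7 of 16 were lower with the same median of the genes averaging 100 or more. Of 16 genes, 13 were lower, 7 of them at least 2-fold, 3 were higher and 0 at least 2-fold higher, with a median log2 ratio of -0.79, beside 60% lower, 17.4% at least 2-fold lower and a median of -0.20 over all genes. Of the 9 partners with a mean of 50 or more, 8 were lower, beside 87.7% of the 6129 genes at that level, so the count is not particular to the partners. Inhibitors of apoptosis were among the highest. *Birc2*, which encodes the ubiquitin ligase cIAP1, had 331 in WT and 109 in deficient cells, a fold reduction of 3.04 (2.31 to 3.96). *Xiap*, the direct caspase inhibitor, had 269 and 130, a fold reduction of 2.07 (1.74 to 2.46). The genes of the channels VDAC1 and VDAC2 of the outer membrane were lower under each scaling. *Vdac1* had 216 and 93, a fold reduction of 2.32 (1.61 to 3.44), and *Vdac2*, whose protein holds BAK and recruits BAX, had 122 and 31, a fold reduction of 3.94 (2.20 to 8.03). *Apaf1*, the scaffold of the apoptosome, had 92 and 59, a ratio of 0.641 (0.488 to 0.850), and *Diablo*, which encodes the XIAP antagonist SMAC, had 93 and 45, a ratio of 0.484 (0.305 to 0.726). *Aifm1* had 67 and 42, a ratio of 0.627 (0.385 to 0.985), while *Dffa*, the inhibitor of the DNA fragmentation nuclease, had 59 and 71, a ratio of 1.20 (0.733 to 1.94).

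Markers of cell types were read beside the family. The 10 DP markers were all lower as deposited, and 8 of them under the scaling to the same median of the genes averaging 100 or more, with a median log2 ratio of -2.12 and sums of 36889 in WT and 9822 in deficient cells. All 10 had a mean of 50 or more, a level at which 87.7% of genes were lower. The sum of the DP markers was the highest of the marker lists in both libraries. The DP list holds *Ptcra*, a pre-TCR gene already used before the DP stage, with 79 and 44. It was lower as deposited, whereas the markers of that earlier stage, given next, were higher. The 5 markers of double-negative (DN) thymocytes, the stage before DP, were all higher as deposited, and the scalings could only raise them. Their sums were 198 and 394, from *Kit* with 35 and 36 to *Il2ra* with 63 and 207, and *Dtx1* had 37 and 41. All but *Il2ra* had a mean under 50, where 48.5% of all genes were higher as deposited, so the count rests on little beside *Il2ra*. The difference in DN markers runs with that of *Bid*, *Bad* and *Pmaip1*, and its part in their values was not tested. Of 5 markers of mature single-positive cells, 4, all with a mean under 50, were higher as deposited and 4 or 5 by scaling, with sums of 348 and 298. Sums for macrophages and dendritic cells were 236 and 235 over 6 genes, with *Itgam*, the highest, at 101 and 107 and *Lyz2*, the lowest, at 19 and 4. Sums for NK and innate cells were 162 and 126 over 4 genes, and for epithelium and stroma 229 and 170 over 6 genes. Of 5 erythroid genes, 3 globin genes were listed at 0 in both libraries, and the sums were 39 and 42.

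Reads of 50 bases that map to more than 1 place were not counted, so each member's longest transcript was searched in the mouse genome (NCBIM37). At most 0.361% of the 50-base windows of any member occurred at several places, against 85.6% for *Gapdh*, a gene with many processed copies that was listed at 6 in WT and 10 in deficient cells. By exact matches, unique mapping therefore took little from the family, and copies that differ by a mismatch were not searched. Windows that span exon junctions and are not in the genome made up from 0.658% for *Bcl2* to 18.7% for *Bax*. Exons of 4 members overlap a gene on the opposite strand, and whether strand was used in counting is not given in the sources used here. *Bcl2l13* overlaps *Bid*, *Gpr137*, with 61 in WT and 64 in deficient cells, overlaps *Bad*, and *Ggnbp1*, with 28 and 22, overlaps *Bak1*, so the values of these pairs are less certain. The transcript D630008O14Rik, which overlaps *Bcl2*, was not analysed here.

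**Figure D5:**
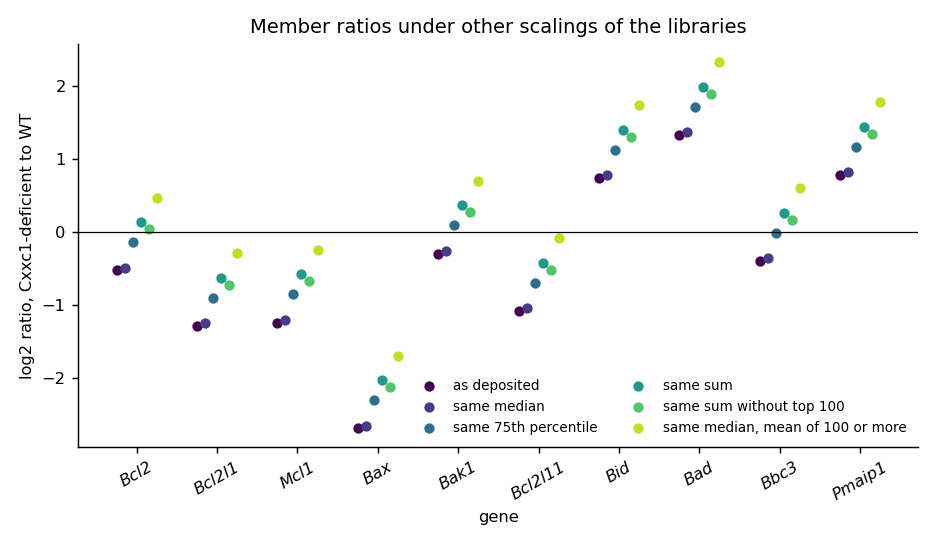
Log2 ratio, *Cxxc1*-deficient to WT, of each gene as deposited and under 5 other scalings of the libraries, each of which moves all genes by the same amount. *Bcl2l1*, *Mcl1*, *Bax* and *Bcl2l11* stay below 0 throughout, while *Bcl2*, *Bak1* and *Bbc3* cross 0. Each scaling moves the genes up, so *Bid*, *Bad* and *Pmaip1* could only stay above 0.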

How the data were processed

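Total RNA of DP thymocytes was made into mRNA libraries and sequenced by the authors in reads of 50 bases on an Illumina HiSeq. Per the submitters' processing notes and the methods, reads were base-called with CASAVA 1.8.2, Bowtie 1.0.1 is listed as a tool, mapping was to mm9, and uniquely mapped reads were summarised with Partek. What the authors deposited is a score per gene in whole numbers, taken to be normalized expression. Its unit, normalization and gene annotation are not given in the sources used here.

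Values were used as deposited. Ratios are *Cxxc1*-deficient to WT with a floor of 1, and 2-fold was the threshold. The size of 1 read was estimated by a scan for 1 constant per library that makes value times transcript length whole, over genes with a single GENCODE vM1 transcript (NCBIM37, the build of mm9) shorter than 1200 bases. The constants were 246576 in WT and 212655 in the deficient library, and the short and the long genes of the scan gave the same ones. Of the table's genes, 19090 had an annotated length by symbol. A gene with several transcripts was given its longest, so its reads and intervals are approximate. Levels of 2 genes within a library have Clopper-Pearson intervals, changes of such a ratio conditional exact ones, and changes of ratios of sums Poisson ones. The scan and the intervals were checked on simulated data. No test was run, since each genotype has 1 library.

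The members and gene lists were chosen with earlier results of these data known. The genes named are the members, *Cxxc1*, and up to 8 genes of each other list by mean value with a mean of at least 50 or a 2-fold difference from at least 50. Others were named after their values were seen, as were the overlapping genes. Amino acid sequences were not used here. The result of 1 marker list is not reported here. Alternatives were 5 scalings, pseudocounts of 1 and 10, subtraction of the olfactory receptor median, a filter on low genes and other thresholds. Intervals came from scipy 1.17.1 under Python 3.11.15, tables from pandas 2.3.3 with numpy 2.4.6, and plots from matplotlib 3.10.9.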

Additional observations from a re-analysis of the deposited data

How the results depend on the processing

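Over the 8 scalings, pseudocounts and subtractions, 7 of the 10 members kept their direction and 3 did not. The scalings raised the deficient values and pseudocounts keep direction, so only the subtraction could have turned *Bid*, *Bad* or *Pmaip1*. The libraries were scaled by a factor on the *Cxxc1*-deficient values, which moved every log2 ratio by 0.04 (same median), 0.39 (same 75th percentile), 0.66 (same sum), 0.56 (same sum without the 100 highest genes) and 1.00 (same median of the genes averaging 100 or more), and the changes below follow from these shifts. The same 75th percentile gave *Bak1* 0.092, a median of the members of -0.075 and 1 member at least 2-fold lower. The same sum gave *Bcl2* 0.13, *Bak1* 0.37, *Bbc3* 0.26, a median of 0.20, 4 members lower and 1 at least 2-fold lower. The same sum without the 100 highest genes gave *Bcl2* 0.035, *Bak1* 0.27, *Bbc3* 0.17, a median of 0.10, 4 lower and 1 at least 2-fold lower. The same median of the genes averaging 100 or more gave *Bcl2* 0.47, *Bak1* 0.70, *Bbc3* 0.60, a median of 0.54, 4 lower and 1 at least 2-fold lower. Subtraction of the olfactory receptor median gave a median of -1.003 and moved *Bax* to -6.34, *Bad* to 4 and *Bbc3* to -1.58, values that rest on the floor of 1 for *Bax*, *Bad* and *Bbc3*, and the 8 members above the median level of all genes had -0.81. At a threshold of 3-fold 1 member was lower. The anti-apoptotic to BH3-only ratio changed by 0.318 without the highest gene of each role and by 0.410 with geometric means, and the anti-apoptotic to effector ratio changed by 3.29 without the highest gene of each role. The number of reads limits *Bax*, *Bad* and *Bbc3*, and a shorter transcript would widen the intervals of genes with several transcripts, for *Bcl2l1* to a ratio from 0.139 to 0.944. No paired analysis was possible because both genotypes are single libraries and nothing was tested.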

Other observations

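Transcription factors and signalling genes known to act upstream of the family were read in a list of 17 genes. Of these, 14 had a lower value in deficient cells, 5 of them at least 2-fold, and 3 a higher one, with a median log2 ratio of -0.86, beside 60% lower, 17.4% at least 2-fold lower and a median of -0.20 over all genes. Of the 15 with a mean of 50 or more, 13 were lower, near the 87.7% of all genes at that level. Under the scaling to the same median of the genes averaging 100 or more, 5 were lower and 12 higher. *Tcf7* (TCF-1) and *Myb*, both known to favour *Bcl2l1* in DP cells, had 5826 and 4461 and 2621 and 848 in WT and deficient cells, ratios of 0.766 (0.727 to 0.807) and 0.324 (0.297 to 0.352). The log2 ratio of *Tcf7*, -0.39, lay above the median of -1.08 of genes with a mean of 100 or more. *Tcf7* turned higher with both libraries scaled to the same sum, a shift of 0.66. *Tcf12* (HEB) had 866 and 402, a ratio of 0.464 (0.412 to 0.521), and *Lef1* had 459 and 234, a ratio of 0.510 (0.426 to 0.608). *Trp53*, which activates *Bax*, *Bbc3* and *Pmaip1*, had 149 and 165, a ratio of 1.11 (0.853 to 1.45). *Hif1a* had 282 and 155, *Stat3* had 215 and 90, and *Huwe1*, which encodes a ubiquitin ligase of MCL-1, had 254 and 195. *Nr4a1*, a gene of TCR-induced death named after its value was seen, was the one at least 2-fold higher, with 39 and 82 and a ratio of 2.10 (1.23 to 3.58).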
